A study of Mus musculus with 18 samples.

Results

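DNA replication and E2F target genes, 39 genes that license and fire replication origins, copy DNA and its chromatin or control entry into S phase, were followed through short amino acid starvation of mouse embryonic stem cells. They were chosen by gene symbol, matched to Ensembl identifiers through GENCODE vM21, and are 39 of the 55471 genes in the deposited count tables. All 39 passed the filter on low counts in every fit, and the lowest count of any of them in any library was 345. RNA came from E14 cells, an established mouse embryonic stem cell line, which per the labels was cultured on gelatin, with 15% serum and LIF, a cytokine that keeps such cells undifferentiated, in its medium. The labels give 6 groups of 3 libraries each. Gcn Arg and Gcn Leu are cells of genotype Eif2ak4-/-, a knock-out of the kinase GCN2, kept for 3 h without arginine or without leucine, and Gcn Unstarved are cells of that genotype in the same SILAC medium with all amino acids. Wt Arg, Wt Leu and Wt Unstarved are wild-type cells under the same 3 conditions. In all groups the starvation medium held 5% dialyzed serum and LIF, and the growth medium of all groups was the same. The series text sets each starved group against its unstarved control. Neither the number of knock-out clones nor the cultures behind the replicates are stated, so p-values measure the spread between these libraries, which may be technical, and genotype cannot be told apart from the history of the cell lines.

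Before S phase, the origin recognition complex (ORC), CDC6 and CDT1 load the MCM2-7 helicase onto DNA, and GINS, CDC45 and MCM10 help to switch it on. DNA polymerases then copy both strands with the sliding clamp PCNA, which the RFC complex loads. Many of these genes are known targets of E2F transcription factors, which are restrained by RB proteins until cyclin E and other cyclins with their kinases release them, and embryonic stem cells are known for a short G1 phase and high cyclin E activity. GCN2 senses uncharged tRNA and phosphorylates eIF2α, which lowers general translation.

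Library totals ran from 14.8 M to 38.8 M counts. Levels are given as CPM, the standard rescaling of counts to a common library size, after TMM normalisation (trimmed mean of M values), with libraries in the order 1, 2, 3. Eif2ak4, the targeted gene, stood at 4.03 to 6.37 CPM in Gcn libraries, against 27 to 33.4 CPM in Wt libraries. On the third principal component (7.1% of the variance) the 3 Gcn libraries numbered 1 lay at -26.2 to -23.3, apart from the other Gcn libraries at 5.4 to 20.4, so results in Gcn cells were also computed without these 3. All 10 stem cell markers were detected in every group, with a summed level of 8040 to 9690 CPM in Gcn libraries and 7300 to 8850 CPM in Wt libraries. Of 8 fibroblast markers, Postn and Lum had a median of 0 CPM, and the 8 summed to 7.05 to 11.2 CPM in Gcn libraries and 16.9 to 26.6 CPM in Wt libraries. The 8 early differentiation markers summed to 46.2 to 56.8 CPM in Gcn Arg and 41.9 to 44.5 CPM in Gcn Leu, against 30.8 to 34.6 CPM in Gcn Unstarved, and to 98 to 109 CPM in Wt Arg and 95.8 to 97.2 CPM in Wt Leu, against 88.4 to 102 CPM in Wt Unstarved. Of the early differentiation markers, 4 of 7 tested rose in Gcn Arg and 2 of 7 in Gcn Leu, beside 14.3% and 11.7% of all genes. In Wt Arg 2 of 8 rose and in Wt Leu 0 of 8, beside 20.9% and 15.5% of all genes. None fell in any starved group. Some were near the floor, such as Foxa2 at 0.343 to 1.91 CPM over the 18 libraries. Their sum and that of the fibroblast markers were lower in Gcn than in Wt libraries. Krt18 alone ran from 3.82 to 78.4 CPM over the 18 libraries. Between the unstarved groups 2 of the 8 early differentiation markers were lower in Gcn cells, 1 was higher and 5 were not called. The part of these markers in the results below was not tested. RNA was measured in bulk, so a different share of cells in S phase and a different amount of RNA per cell cannot be told apart.

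Per length, the helicase subunit gene Mcm5 was the most abundant of the 39, with a median over the 18 libraries of 220 CPM per kb of exon. Pcna followed at 208, Mcm3 at 166, Cdt1 at 125 and Rrm2 at 121 CPM per kb. The ranges of Mcm5 (192 to 249 CPM per kb) and Pcna (169 to 259 CPM per kb) overlapped, so their order is not separated by the spread. At the low end stood the activator E2F gene E2f2 at 5.67, the cyclin gene Ccne2 at 6.86, Pola2 at 9.74, Pole at 12.1 and Gins3 at 12.5 CPM per kb. E2f2 also varied most among groups. Its highest group mean (Gcn Unstarved) was 2.47 times its lowest (Wt Arg), followed by ratios of 2.04 for Gins3, 1.93 for Pola1, 1.92 for Rfc3, 1.77 for Gins1 and 1.74 for Uhrf1. All 6 MCM2-7 genes had medians between 87.2 and 220 CPM per kb, while the GINS genes were spread from 118 (Gins4) through 53 (Gins1) and 25.6 (Gins2) to 12.5 CPM per kb (Gins3). These values depend on the exon length, which was 1349 bp for Gins4, 1516 bp for Gins1, 4097 bp for Gins2 and 2709 bp for Gins3. Of the Gins2 length, 2758 bp is shared with Gse1 on the other strand. In mean CPM, not divided by length, Gins2 stood above Gins1 in every group.

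**Figure D1:**
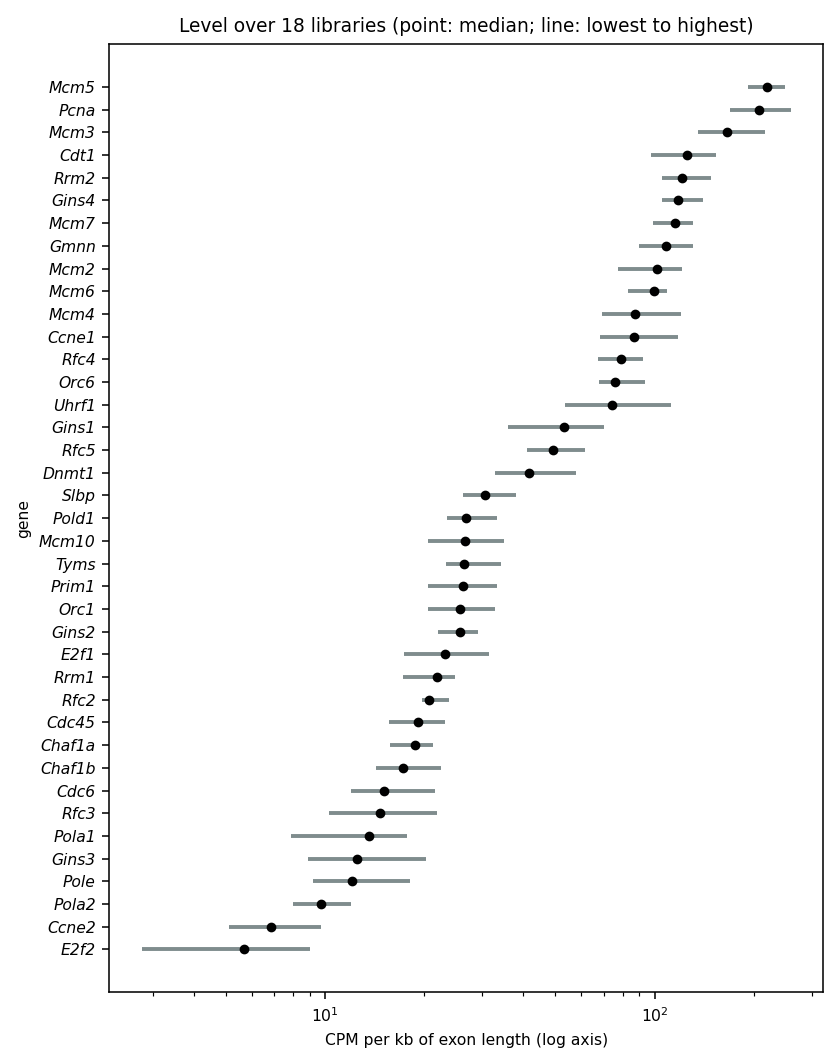
Level of each of the 39 genes in CPM per kb of exon length (horizontal log axis), with the median over 18 libraries as a point and the lowest to highest library as a line. Mcm5 and Pcna stand at the top with overlapping ranges, and E2f2 at the bottom has the widest line, from 2.78 to 8.99 CPM per kb.

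Promoter sequences from RefSeq (GRCm38.p6) were at hand for 31 of the 39 genes, in 36 windows that run from 250 bases before to 50 bases after a start. The E2F-type letter strings TTTCCCGC, TTTCGCGC, TTTGCCGC and TTTGGCGC were searched on both strands. Matches may overlap, as they did in Mcm5 and Mcm6. At least 1 match lay in 14 of the 36 windows (38.9%), against 744 of 32851 windows of all genes (2.26%), and in 10 of the 36 windows (27.8%) when only the bases before the start were read, against 1.86% of all. The windows of the 39 genes were also richer in G and C, with a median of 60.7%, against 52.7% over all windows. Shares of all windows with each string were 1.07%, 0.323%, 0.441% and 0.514% in the order given, and TTTGCCGC was in none of the 36 windows. Mcm6 had 3 matches, and Dnmt1, Mcm3, Mcm5, Mcm7 and Rfc3 had 2 each. Matches were found both in genes that rose with starvation and in genes that fell, so 4 promoters are shown, of Uhrf1, Gins3, Pola1 and Rfc3, whose levels are described below. Each runs 5′ to 3′ on the gene's strand over the 250 bases that end just before the RefSeq start, with matches in capitals; in Gins3 and Pola1 the capitals are the reverse complement of TTTCCCGC and TTTGGCGC. Uhrf1 has 2 listed starts, and the window with a match is shown. The regions are chr17:56304063-56304312 (plus strand), chr8:95633309-95633558 (plus strand), chrX:93632156-93632405 (minus strand) and chr5:151651209-151651458 (minus strand).
Uhrf1: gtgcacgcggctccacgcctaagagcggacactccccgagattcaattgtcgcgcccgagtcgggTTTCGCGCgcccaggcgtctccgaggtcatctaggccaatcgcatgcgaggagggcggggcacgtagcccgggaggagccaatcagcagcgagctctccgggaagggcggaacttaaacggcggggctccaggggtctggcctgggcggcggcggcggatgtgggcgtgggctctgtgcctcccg
Gins3: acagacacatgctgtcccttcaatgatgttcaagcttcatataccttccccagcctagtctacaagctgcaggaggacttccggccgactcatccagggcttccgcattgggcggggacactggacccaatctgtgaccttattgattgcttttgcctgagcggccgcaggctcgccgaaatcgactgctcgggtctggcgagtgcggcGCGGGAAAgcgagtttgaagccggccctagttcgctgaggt
Pola1: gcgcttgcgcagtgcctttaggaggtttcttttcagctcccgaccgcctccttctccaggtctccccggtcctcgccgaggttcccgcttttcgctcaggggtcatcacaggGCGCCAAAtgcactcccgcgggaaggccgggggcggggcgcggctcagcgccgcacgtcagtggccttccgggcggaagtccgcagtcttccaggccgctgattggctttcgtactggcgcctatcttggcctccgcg
Rfc3: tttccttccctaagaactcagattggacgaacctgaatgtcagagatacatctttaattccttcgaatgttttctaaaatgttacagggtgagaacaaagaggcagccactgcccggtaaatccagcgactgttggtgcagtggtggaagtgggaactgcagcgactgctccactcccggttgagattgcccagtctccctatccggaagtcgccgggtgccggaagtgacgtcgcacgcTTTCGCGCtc
Counted in bases from the start, the matches began at -185 in Uhrf1, -41 in Gins3, -138 in Pola1 and -10 in Rfc3, whose second match lay just past the bases shown. A match is a string of letters and was not tied to binding of any factor here.

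**Figure D2:**
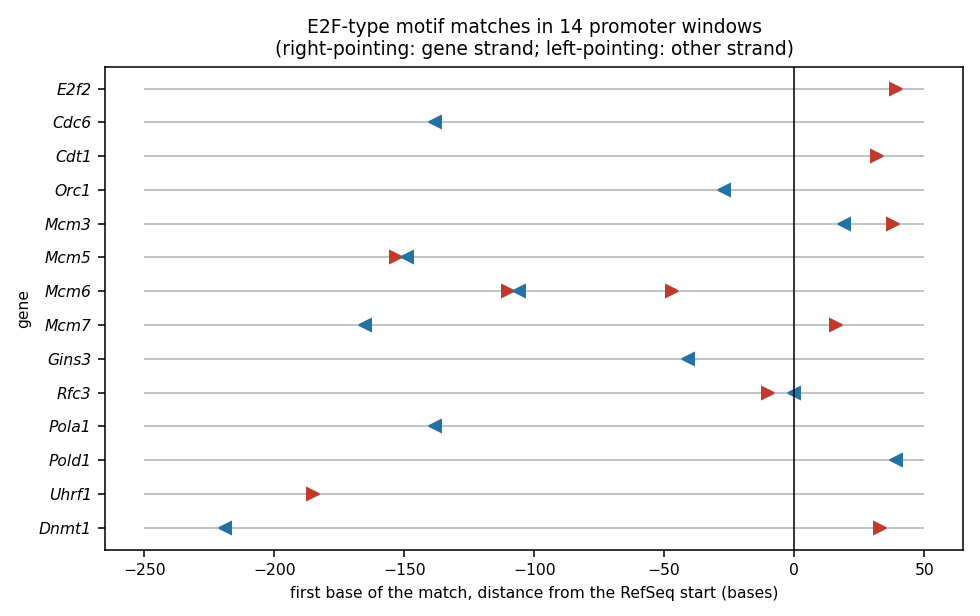
Positions of the E2F-type strings in the 14 promoter windows that hold one, as the distance of the first base from the RefSeq start in bases (horizontal axis), with right-pointing marks for the gene's strand and left-pointing marks for the other strand. Matches lie on both sides of the start, and the overlapping pairs in Mcm5 and Mcm6 sit side by side.

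With arginine starvation, genes of the helicase and its activation (Mcm2, Mcm3, Mcm4, Mcm10, Gins3), the licensing factor gene Cdt1, the polymerase gene Pole and the chromatin genes Uhrf1 and Chaf1b rose in both genotypes, together with E2f1. E2f2 and the clamp loader genes Rfc3 and Rfc5 fell in both. Changes were modest: the largest called log2 fold changes were 0.72 (Uhrf1) and -0.55 (E2f2) in Gcn cells, and 0.56 (Pola1) and -1.15 (E2f2) in Wt cells. In Gcn Arg, 10 of the 39 rose and 4 fell against Gcn Unstarved, 25.6% and 10.3%, where 14.3% and 13.7% of all genes tested were called higher and lower, so the lower calls were under the background. In Wt Arg, 18 rose and 7 fell against Wt Unstarved, 46.2% and 17.9%, where 20.9% of all genes were higher and 20% lower. The median log2 fold change of the 39 was 0.152 in Gcn Arg and 0.147 in Wt Arg, beside -0.011 and -0.008 over all genes tested. Calls are an adjusted p under 0.05 in edgeR's quasi-likelihood test, with Benjamini-Hochberg adjustment over all genes of a fit. The comparisons of the 2 genotypes share no library. Shared between them were 10 of the higher calls, all 10 of Gcn Arg and 55.6% of those of Wt Arg, and 3 of the lower calls, 75% and 42.9%. No gene was called in opposite directions. How many calls the genotypes shared over all genes tested was not counted, so this sharing cannot be set against a background.

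With leucine starvation, Cdt1, Mcm2, Mcm7, Mcm10, Gins3, Uhrf1 and the maintenance methyltransferase gene Dnmt1 rose in both genotypes, and E2f2, Rfc3 and Rfc5 fell in both. Rfc3 fell most in Gcn cells (log2 -0.93) and E2f2 most in Wt cells (-0.82). In Gcn Leu, 11 rose and 4 fell against Gcn Unstarved, 28.2% and 10.3%, where 11.7% and 10% of all genes were higher and lower, so the lower calls stood at the background. In Wt Leu, 13 rose and 8 fell against Wt Unstarved, 33.3% and 20.5%, beside 15.5% and 14.1% of all genes. Median log2 fold changes of the 39 were 0.132 in Gcn Leu and 0.069 in Wt Leu, where those of all genes were 0 and 0.007. The genotypes shared 7 higher calls, 63.6% of those of Gcn Leu and 53.8% of those of Wt Leu, and 3 lower calls, 75% and 37.5%, with none opposite. Here too the sharing over all genes was not counted. The arginine and leucine comparisons of a genotype use the same unstarved libraries, so their values are given side by side below and their overlap is not counted.

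The summed level of the 39 was 9310 to 9990 CPM in Gcn Arg and 9080 to 9800 CPM in Gcn Leu, against 8390 to 8560 CPM in Gcn Unstarved, and 8730 to 8880 CPM in Wt Arg and 8260 to 8830 CPM in Wt Leu, against 8090 to 8180 CPM in Wt Unstarved. None of the starved ranges overlapped that of its control. The most abundant genes weigh most in such a sum, and in Wt Leu 13 of the 39 rose, 8 fell and 18 were not called. In Gcn cells, libraries with the same number deviated together. With the number as a block, 20 of the 39 rose and 4 fell in Gcn Arg. Under the same fit 22.3% of all genes rose and 24.2% fell. In Gcn Leu 19 of the 39 rose and 4 fell, beside 20.4% and 20.2% of all genes. The calls of all genes thus also grew. With the block the 4 lower members were under the background in both groups, and the share of the 39 that rose was above it. The genes gained in Gcn Arg were Ccne2, Cdc6, Gins1, Rfc4, Pola2, Pold1, Rrm2, Tyms, Dnmt1 and Slbp. In Gcn Leu they were Ccne2, Gmnn, Orc6, Gins4, Prim1, Rrm1, Rrm2 and Tyms. Scaling by library size alone moved the median of all genes in Gcn Arg to 0.11. It gave 20 of the 39 higher and 2 lower there, beside 21% and 8.54% of all genes. In Gcn Leu it gave 16 of the 39 higher and 3 lower, beside 15.9% and 6.51% of all genes. Without the 3 Gcn libraries numbered 1, 11 of the 39 rose and 4 fell in Gcn Arg, beside 13% and 12.5% of all genes. Under the same fit 8 of the 39 rose and 3 fell in Gcn Leu, beside 10.9% and 8.95% of all genes. In Gcn Leu the calls of Cdc6, Cdt1, Mcm3, Mcm7 and Rfc5 were lost.

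**Figure D3:**
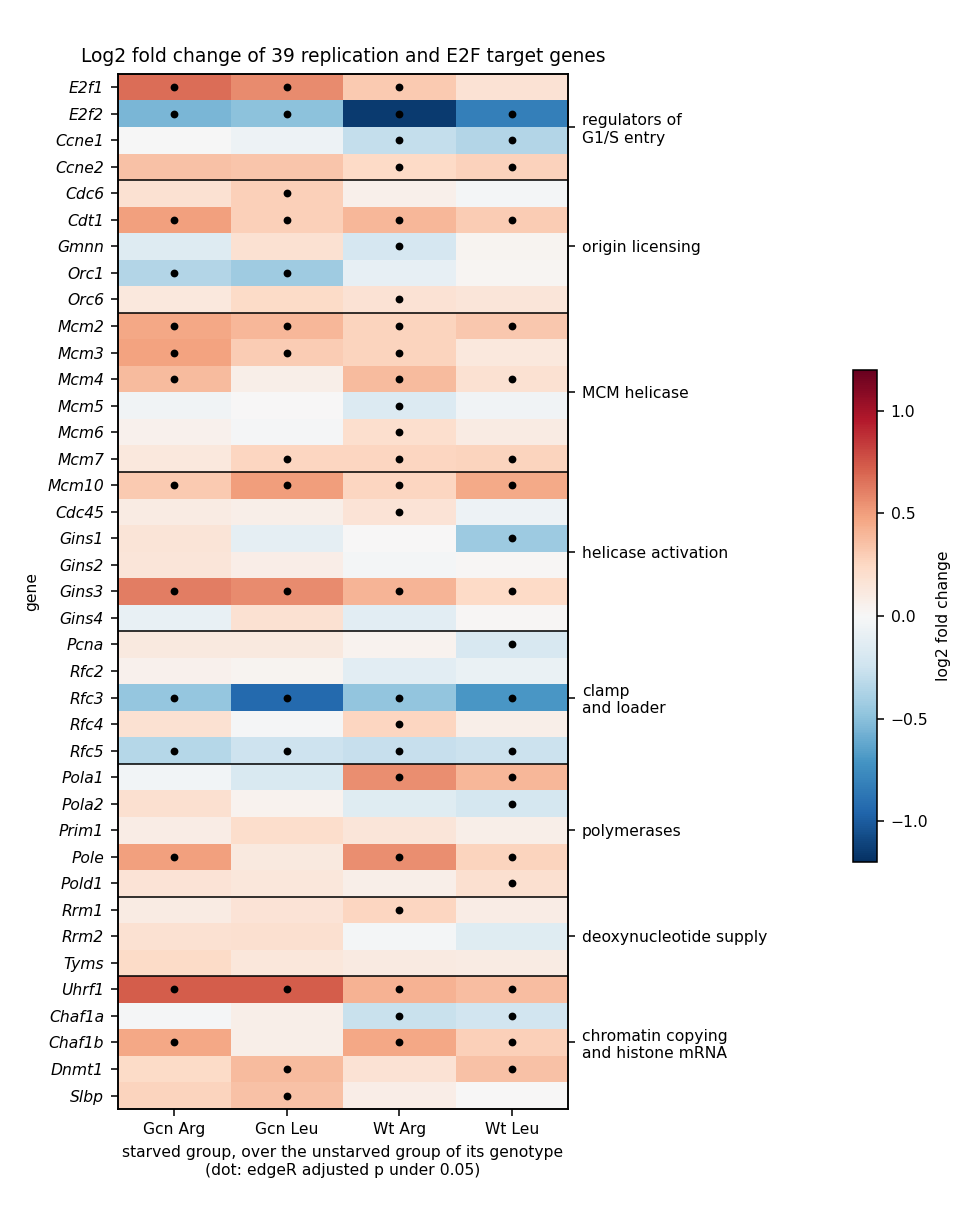
Log2 fold change (colour) of each of the 39 genes, grouped by role, in the 4 starved groups over the unstarved group of their genotype, with a dot where the adjusted p was under 0.05. Most called genes are red (higher), among them Uhrf1, Mcm2, Mcm10, Gins3 and Cdt1 in all 4 columns, while E2f2, Rfc3 and Rfc5 are blue (lower) in all 4.

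Among regulators of entry into S phase, the activator genes E2f1 and E2f2 moved in opposite directions. E2f1 (GRCm38 chromosome 2, 154559407 to 154569892, minus strand) encodes an activator E2F that binds S-phase promoters. In Gcn cells it stood at 98.3, 95.4 and 83.6 CPM with arginine starvation and 99.3, 81.5 and 76.7 CPM with leucine starvation, against 63.5, 56.1 and 55.5 CPM unstarved. Every starved Gcn library lay above every unstarved one (log2 0.67 ± 0.10, adjusted p = 0.000286 with arginine and 0.56 ± 0.10, adjusted p = 0.00157 with leucine starvation). In Wt cells E2f1 stood at 73.4, 73.7 and 82.2 CPM in Wt Arg and 67.9, 67.8 and 72.8 CPM in Wt Leu, against 59.8, 54.8 and 70.4 CPM in Wt Unstarved. Its rise passed the test with arginine starvation (0.31 ± 0.082, adjusted p = 0.00577) and not with leucine starvation (0.17 ± 0.082, adjusted p = 0.13), where the groups overlapped.

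E2f2 (chromosome 4, 136172394 to 136196057, plus strand), another activator of the family, went the other way in each starved group. Its levels in Wt Arg were 13.6, 16 and 19.7 CPM and in Wt Leu 16.2, 21.8 and 24.1 CPM, against 32.1, 35.4 and 42.2 CPM in Wt Unstarved, with no overlap (log2 arginine -1.15 ± 0.16, adjusted p = 0.000136, and leucine -0.82 ± 0.16, adjusted p = 0.00236). Gcn Arg had 31.2, 27.4 and 23.9 CPM and Gcn Leu 32.2, 27.9 and 26.2 CPM, against 43.9, 38.5 and 39.3 CPM in Gcn Unstarved, again without overlap (-0.55 ± 0.11, adjusted p = 0.00182 and -0.49 ± 0.11, adjusted p = 0.00499). Ccne1 (chromosome 7, 38097984 to 38107534, minus strand), which encodes cyclin E1, had 268, 239 and 249 CPM in Wt Arg and 243, 232 and 252 CPM in Wt Leu, against 311, 298 and 315 CPM in Wt Unstarved, and fell in both (-0.29 ± 0.061, adjusted p = 0.00119, and -0.35 ± 0.061, adjusted p = 0.000437). In Gcn cells the values were -0.01 and -0.06, with adjusted p = 0.976 and 0.719. Ccne2 rose in Wt Arg (0.24 ± 0.092, adjusted p = 0.0487) and Wt Leu (0.28 ± 0.093, adjusted p = 0.0334), and had 0.35 and 0.33 in Gcn Arg and Gcn Leu without passing the test, though it passed with the replicate block (adjusted p = 0.00104 and 0.00196). The Ccne2 call of Wt Arg was lost without Wt Arg 1, Wt Arg 2 or any 1 of the 3 Wt Unstarved libraries (adjusted p up to 0.186), and that of Wt Leu without Wt Leu 1, Wt Leu 2 or Wt Unstarved 3 (up to 0.163). When the block was joined with a correction for GC content, its values turned to -0.075 in Wt Arg and -0.011 in Wt Leu. Ccne2 also shares 609 bp of exon with Ints8 on the opposite strand, and whether counting used strand is not known here. The same holds for Cdc45, Chaf1a, Gins2, Mcm7, Orc1, Orc6, Pole, Rfc2, Rfc4, Rfc5 and Slbp, which share exon with other genes.

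**Figure D4:**
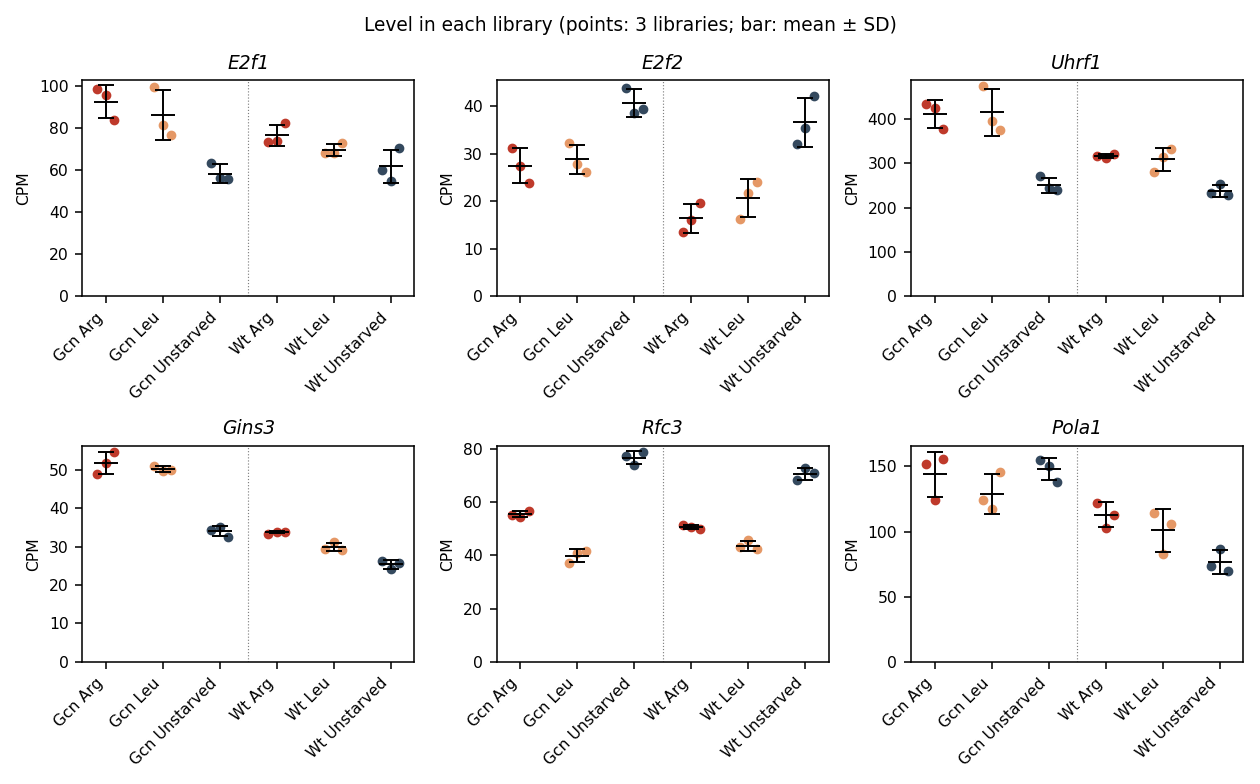
CPM (vertical axis) of 6 of the genes in each of the 3 libraries of each group, with the mean and SD as bars; Gcn groups stand left of the dotted line and Wt groups right of it, with starved groups left of the unstarved one. E2f1, Uhrf1 and Gins3 are higher and E2f2 and Rfc3 lower in starved Gcn cells, and Pola1 is lowest in Wt Unstarved.

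Of the 5 origin licensing genes, Cdt1, which brings the MCM helicase to origins, rose in every starved group. It had 440, 484 and 437 CPM in Gcn Arg and 422, 408 and 356 CPM in Gcn Leu, against 341, 328 and 306 CPM in Gcn Unstarved (0.49 ± 0.089, adjusted p = 0.00107, and 0.29 ± 0.089, adjusted p = 0.033). In Wt Arg it had 422, 398 and 412 CPM and in Wt Leu 373, 391 and 392 CPM, against 316, 305 and 314 CPM in Wt Unstarved (0.40 ± 0.054, adjusted p = 2.07e-05, and 0.31 ± 0.054, adjusted p = 0.000479). No starved library of either genotype overlapped the unstarved ones, but the Gcn Leu call was lost without Gcn Leu 1, Gcn Leu 2 or any 1 Gcn Unstarved library (adjusted p up to 0.147). Gmnn encodes geminin, the inhibitor of CDT1. It fell in Wt Arg (-0.20 ± 0.069, adjusted p = 0.029), a call lost without Wt Arg 1, Wt Arg 3, Wt Unstarved 1 or Wt Unstarved 3 (up to 0.122), and stood at 0.03 in Wt Leu, -0.15 in Gcn Arg and 0.19 in Gcn Leu, uncalled there.

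Orc1 (chromosome 4, 108579423 to 108614833, plus strand), an ORC subunit that binds and hydrolyses ATP, fell in Gcn cells. Its levels were 83.3, 76.4 and 82.8 CPM in Gcn Arg and 80.9, 71.7 and 77.9 CPM in Gcn Leu, against 114, 103 and 95.5 CPM in Gcn Unstarved, with no overlap (-0.36 ± 0.089, adjusted p = 0.00899, and -0.43 ± 0.089, adjusted p = 0.00381). The arginine call was lost without Gcn Unstarved 1, the highest of the unstarved libraries (adjusted p = 0.0503), and with scaling by library size alone (0.0666). In Wt cells Orc1 had -0.10 and 0.02 in Wt Arg and Wt Leu, and neither passed. Cdc6, an ATPase that joins ORC at origins, rose in Gcn Leu (0.29 ± 0.076, adjusted p = 0.0158), lost without Gcn Leu 1, Gcn Leu 2 or any 1 Gcn Unstarved library (up to 0.0756). Elsewhere it stood at 0.19 (Gcn Arg), 0.06 (Wt Arg) and -0.02 (Wt Leu). Orc6 rose in Wt Arg (0.17 ± 0.058, adjusted p = 0.0253), lost without Wt Arg 2 or any 1 Wt Unstarved library (up to 0.124), and had 0.14, 0.12 and 0.23 in Wt Leu, Gcn Arg and Gcn Leu. A difference between these comparisons was tested only between genotypes, as given below.

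The 6 genes of the MCM2-7 helicase, which unwinds DNA at the fork, rose more often than they fell. In Gcn Arg 3 of 6 rose and none fell, and likewise in Gcn Leu. In Wt Arg 5 rose and 1 fell, and in Wt Leu 3 rose and none fell. Of all genes tested, 14.3% rose and 13.7% fell in Gcn Arg, and 11.7% and 10% in Gcn Leu. The shares were 20.9% and 20% in Wt Arg, and 15.5% and 14.1% in Wt Leu. Whether the helicase genes differed from the other members was not tested. All 39 members together also had more higher than lower calls in each starved group, as given above. Mcm2 rose in each, to 763 ± 72.2 CPM in Gcn Arg and 729 ± 74.6 CPM in Gcn Leu, against 555 ± 15.9 CPM in Gcn Unstarved, and to 748 ± 18.8 CPM in Wt Arg and 777 ± 79.1 CPM in Wt Leu, against 621 ± 8.13 CPM in Wt Unstarved (mean ± SD, n = 3). Its log2 fold changes were 0.47, 0.40, 0.27 and 0.32 in that order. Mcm3 rose in Gcn Arg (0.48), Gcn Leu (0.30) and Wt Arg (0.26), with 0.13 in Wt Leu. Mcm7 rose in Gcn Leu (0.26), Wt Arg (0.26) and Wt Leu (0.26), with 0.13 in Gcn Arg. In Gcn Leu, both the Mcm3 and the Mcm7 call were lost without Gcn Leu 1, Gcn Leu 2 or any 1 Gcn Unstarved library (adjusted p up to 0.177 and 0.13).

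Mcm4 rose with arginine starvation in both genotypes. It had 430, 368 and 367 CPM in Gcn Arg and 335, 302 and 303 CPM in Gcn Leu, against 318, 307 and 276 CPM in Gcn Unstarved, a rise with arginine of 0.38 ± 0.091, adjusted p = 0.00697, where leucine, at 0.07 ± 0.091, adjusted p = 0.664, did not pass. Wt Arg had 347, 342 and 350 CPM and Wt Leu 282, 322 and 308 CPM, against 264, 287 and 249 CPM in Wt Unstarved (0.38 ± 0.064, adjusted p = 0.000159, and 0.19 ± 0.064, adjusted p = 0.0369). The Wt Leu call was lost without Wt Leu 2, Wt Leu 3, Wt Unstarved 1 or Wt Unstarved 3 (up to 0.18). Mcm5, the most abundant of the 39, fell slightly in Wt Arg (-0.16 ± 0.057, adjusted p = 0.0337), a call lost without any 1 of the 6 libraries (up to 0.106), and stood between -0.04 and 0.01 in the other starved groups. Mcm6 rose in Wt Arg (0.20 ± 0.060, adjusted p = 0.0137), lost without Wt Unstarved 3 (adjusted p = 0.088), and had 0.10, 0.05 and -0.01 in Wt Leu, Gcn Arg and Gcn Leu.

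Mcm10 and Gins3, of the helicase activation genes, rose in every starved group. Mcm10, which binds the helicase as it is switched on, had 233, 219 and 216 CPM in Gcn Arg and 268, 251 and 240 CPM in Gcn Leu, against 197, 175 and 168 CPM in Gcn Unstarved (0.31 ± 0.084, adjusted p = 0.0126, and 0.50 ± 0.084, adjusted p = 0.000936). In Wt Arg it had 194, 182 and 195 CPM and in Wt Leu 212, 220 and 225 CPM, against 163, 157 and 159 CPM in Wt Unstarved (0.26 ± 0.055, adjusted p = 0.00135, and 0.45 ± 0.055, adjusted p = 1.54e-05). No starved library overlapped its controls, although the Gcn Arg call was lost without Gcn Unstarved 2 or Gcn Unstarved 3 (adjusted p up to 0.0657). Gins3 (chromosome 8, 95633453 to 95645060, plus strand), a GINS subunit gene, had 48.9, 51.7 and 54.7 CPM in Gcn Arg and 50.9, 49.6 and 50 CPM in Gcn Leu, against 34.4, 35.1 and 32.6 CPM in Gcn Unstarved, all starved libraries above the controls (0.61 ± 0.085, adjusted p = 0.000141, and 0.57 ± 0.084, adjusted p = 0.000385). Wt Arg had 33.4, 33.9 and 33.8 CPM and Wt Leu 29.4, 31.1 and 29.2 CPM, against 26.3, 24.1 and 25.7 CPM in Wt Unstarved (0.41 ± 0.069, adjusted p = 0.000165, and 0.23 ± 0.070, adjusted p = 0.0178). The Wt Leu call was lost without Wt Leu 2 or Wt Unstarved 2 (up to 0.0835).

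Of the other GINS genes, Gins1 had 54.3, 59 and 54.9 CPM in Wt Leu, below the 75.2, 75.9 and 76.6 CPM of Wt Unstarved (-0.44 ± 0.075, adjusted p = 0.000344), while Wt Arg, at 66.3, 83.2 and 77.9 CPM, overlapped the controls (0.00). In Gcn cells Gins1 stood at 0.15 with arginine and -0.11 with leucine starvation, uncalled. Gins2 and Gins4 passed in none of the 4 comparisons, with log2 fold changes from -0.13 to 0.19, and Gins2 shares 2758 bp of exon with Gse1 on the other strand. Cdc45, the third partner of the active helicase, rose in Wt Arg (0.17 ± 0.060, adjusted p = 0.0355), lost without Wt Arg 1, Wt Arg 3 or any 1 Wt Unstarved library (up to 0.144), and had -0.06, 0.10 and 0.07 in Wt Leu, Gcn Arg and Gcn Leu.

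Among the clamp and clamp loader genes, Rfc3 (chromosome 5, 151642756 to 151651242, minus strand), a small RFC subunit gene, fell in every starved group, to 55, 54.5 and 56.7 CPM in Gcn Arg and 37.3, 41 and 41.5 CPM in Gcn Leu, against 77.5, 74 and 78.7 CPM in Gcn Unstarved. In Wt Arg it stood at 51.4, 50.6 and 50.1 CPM and in Wt Leu at 43, 45.7 and 42.3 CPM, against 68.2, 72.8 and 70.9 CPM in Wt Unstarved. The groups were tight and apart, with log2 -0.46 ± 0.083, adjusted p = 0.00101 in Gcn Arg, -0.93 ± 0.084, adjusted p = 1.14e-05 in Gcn Leu, -0.48 ± 0.061, adjusted p = 1.08e-05 in Wt Arg and -0.69 ± 0.062, adjusted p = 5.74e-07 in Wt Leu. Rfc5, another small subunit gene, fell by less in each (-0.34, -0.25, -0.28 and -0.26 in the same order). Its Gcn Leu call was lost without Gcn Leu 2, Gcn Leu 3 or any 1 Gcn Unstarved library (up to 0.117), and its Gcn Arg call with scaling by library size alone (adjusted p = 0.0575). Rfc4 rose in Wt Arg (0.26 ± 0.064, adjusted p = 0.00368), with 0.07, 0.18 and -0.01 in Wt Leu, Gcn Arg and Gcn Leu, and Rfc2 passed in none (0.05, 0.03, -0.13 and -0.08 in Gcn Arg, Gcn Leu, Wt Arg and Wt Leu). Pcna, the clamp itself, fell in Wt Leu, at 427, 452 and 406 CPM against 489, 474 and 506 CPM in Wt Unstarved (-0.19 ± 0.064, adjusted p = 0.0305), a call lost without Wt Leu 1, Wt Leu 3, Wt Unstarved 1 or Wt Unstarved 3 (up to 0.112). In Gcn Arg, Gcn Leu and Wt Arg it had 0.12, 0.12 and 0.04, uncalled. Its counts are uncertain, since the pseudogene Pcna-ps2 held 58543 counts over the 18 libraries and how shared reads were split is not known.

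Of the polymerase genes, Pole, the catalytic subunit of the leading-strand polymerase epsilon, rose in Gcn Arg at 202, 146 and 162 CPM, against 138, 116 and 111 CPM in Gcn Unstarved (0.49 ± 0.13, adjusted p = 0.0118, lost without Gcn Unstarved 2 or Gcn Unstarved 3, adjusted p up to 0.0592). In Gcn Leu it had 148, 112 and 135 CPM, overlapping the controls (0.12 ± 0.13, adjusted p = 0.565). Wt Arg had 157, 160 and 167 CPM and Wt Leu 132, 129 and 135 CPM, both above the 112, 113 and 103 CPM of Wt Unstarved (0.56 ± 0.058, adjusted p = 1.26e-06, and 0.27 ± 0.058, adjusted p = 0.00231, with adjusted p = 0.0772 for Wt Leu when all 6 groups were fitted together). Pola1 (chromosome X, 93304767 to 93632155, minus strand), the catalytic subunit of polymerase alpha that extends primers, rose in Wt cells, with 122, 103 and 113 CPM in Wt Arg and 114, 82.6 and 106 CPM in Wt Leu, against 73.4, 86.8 and 69.6 CPM in Wt Unstarved (0.56 ± 0.12, adjusted p = 0.003, and 0.40 ± 0.12, adjusted p = 0.0282). Wt Leu overlapped its controls, and its call was lost without Wt Leu 1, Wt Leu 3, Wt Unstarved 1 or Wt Unstarved 3 (up to 0.109). In Gcn cells Pola1 had 152, 124 and 156 CPM in Gcn Arg and 124, 117 and 146 CPM in Gcn Leu, against 155, 150 and 138 CPM in Gcn Unstarved, with overlap (-0.03 ± 0.11, adjusted p = 0.869, and -0.18 ± 0.11, adjusted p = 0.275). Its partner Pola2 fell in Wt Leu (-0.21 ± 0.072, adjusted p = 0.0352), lost without Wt Leu 1, Wt Leu 2, Wt Unstarved 1 or Wt Unstarved 3 (up to 0.179). Pold1, of the lagging-strand polymerase delta, rose in Wt Leu (0.20 ± 0.065, adjusted p = 0.0293), lost without Wt Leu 2, Wt Leu 3, Wt Unstarved 2 or Wt Unstarved 3 (up to 0.159). In Gcn Arg, Gcn Leu and Wt Arg, Pola2 had 0.19, 0.04 and -0.14 and Pold1 0.17, 0.13 and 0.07, uncalled. The primase gene Prim1 passed in none (0.09, 0.21, 0.15 and 0.07 in Gcn Arg, Gcn Leu, Wt Arg and Wt Leu).

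Of the deoxynucleotide supply genes Rrm1 and Rrm2, the large and small subunits of ribonucleotide reductase, and Tyms, thymidylate synthase, only Rrm1 in Wt Arg passed among the 4 comparisons, with 252 ± 10.8 CPM against 211 ± 20 CPM in Wt Unstarved (mean ± SD, n = 3, log2 0.26 ± 0.068, adjusted p = 0.00579). Elsewhere Rrm1 had 0.10 in Gcn Arg, 0.16 in Gcn Leu and 0.09 in Wt Leu. Rrm2 ranged from -0.15 in Wt Leu to 0.20 in Gcn Leu and Tyms from 0.09 in Wt Leu to 0.23 in Gcn Arg. With the replicate block, Rrm2 and Tyms passed as higher in Gcn Arg and Gcn Leu.

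The largest called rise with starvation in Gcn cells was that of Uhrf1, of the chromatin copying genes. Uhrf1 (chromosome 17, 56303321 to 56323486, plus strand), which recruits the maintenance DNA methyltransferase to newly copied DNA, had 435, 426 and 377 CPM in Gcn Arg and 475, 396 and 375 CPM in Gcn Leu, against 271, 244 and 240 CPM in Gcn Unstarved. Every starved library was above every control (0.72 ± 0.098, adjusted p = 0.000119, and 0.73 ± 0.098, adjusted p = 0.000193). In Wt cells it had 317, 313 and 322 CPM in Wt Arg and 281, 314 and 332 CPM in Wt Leu, against 233, 254 and 228 CPM in Wt Unstarved, also without overlap (0.41 ± 0.065, adjusted p = 8.56e-05, and 0.37 ± 0.065, adjusted p = 0.000414). Dnmt1, that methyltransferase, rose with leucine starvation, to 373 ± 45.7 CPM in Gcn Leu against 287 ± 25.5 CPM in Gcn Unstarved, and to 324 ± 43.2 CPM in Wt Leu against 254 ± 10.2 CPM in Wt Unstarved (0.38 ± 0.10, adjusted p = 0.0171, and 0.35 ± 0.077, adjusted p = 0.00262). With arginine starvation it had 0.23 in Gcn and 0.18 in Wt cells, uncalled. Its Gcn Leu call was lost without Gcn Leu 1, Gcn Unstarved 2 or Gcn Unstarved 3 (up to 0.0997).

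The large subunits of chromatin assembly factor 1, which places histones on new DNA, diverged in Wt cells. Chaf1b had 96.8, 93.1 and 93.5 CPM in Wt Arg and 78.5, 87.9 and 86 CPM in Wt Leu, against 66.8, 71.1 and 68.4 CPM in Wt Unstarved, and rose in both (0.46 ± 0.061, adjusted p = 1.55e-05, and 0.29 ± 0.061, adjusted p = 0.00184). Chaf1a fell in both (-0.26 and -0.23), the Wt Leu call being lost without Wt Leu 1 or Wt Leu 2 (adjusted p up to 0.0616). Chaf1a shares 4648 bp of exon with Ubxn6 on the other strand. In Gcn cells Chaf1b had 105, 102 and 91.5 CPM in Gcn Arg and 80.5, 75.1 and 72 CPM in Gcn Leu, against 81.9, 69.1 and 67 CPM in Gcn Unstarved, and rose with arginine starvation (0.46 ± 0.093, adjusted p = 0.00227) while leucine gave 0.07 ± 0.093, adjusted p = 0.661. Chaf1a stood at -0.01 and 0.07 in Gcn Arg and Gcn Leu. Slbp, which binds the stem-loop of replication-dependent histone mRNA, rose in Gcn Leu (0.35 ± 0.098, adjusted p = 0.0193), lost without Gcn Leu 2, Gcn Leu 3, Gcn Unstarved 1 or Gcn Unstarved 2 (up to 0.0884), and had 0.26, 0.08 and 0.00 in Gcn Arg, Wt Arg and Wt Leu.

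Leucine and arginine starvation were also set against each other. In Gcn cells Rfc3, Chaf1b and Mcm4 were lower with leucine than with arginine starvation and none of the 39 was higher, 3 lower (7.69%) where 3.88% of all genes were lower and 4.64% higher. At an unadjusted p under 0.05 there were 9 genes, DESeq2 called 2 higher and 3 lower, and limma-voom 0 and 3. Rfc3 had -0.47 ± 0.084, adjusted p = 0.00368, Chaf1b -0.39 ± 0.093, adjusted p = 0.0188 and Mcm4 -0.31 ± 0.091, adjusted p = 0.04996, just under the threshold. The Mcm4 call was lost without any 1 of the 6 libraries (up to 0.175) and without the 3 Gcn libraries numbered 1 (adjusted p = 0.0956), and that of Chaf1b without Gcn Arg 1, Gcn Leu 2 or Gcn Leu 3 (up to 0.0641). With the replicate number as a block, 4 of the 39 were higher (Gmnn, Mcm10, Gins4 and Dnmt1) and 8 lower. Under the same fit 14.4% of all genes were higher and 12.3% lower.

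In Wt cells 2 genes were higher and 5 lower with leucine than with arginine starvation, 5.13% and 12.8%, beside 5.25% and 4.76% of all genes. Lower were Gins1 (-0.44 ± 0.075, adjusted p = 0.00127), Pole (-0.29 ± 0.058, adjusted p = 0.00388), Pcna (-0.24 ± 0.064, adjusted p = 0.0282), Cdc45 (-0.23) and Rfc3 (-0.22), and higher were Gmnn (0.23 ± 0.069, adjusted p = 0.0413) and Mcm10 (0.20). Gmnn had 171, 180 and 154 CPM in Wt Leu, against 135, 155 and 138 CPM in Wt Arg, and Pcna 427, 452 and 406 CPM in Wt Leu, against 505, 534 and 470 CPM in Wt Arg. Gmnn overlapped between the groups and Pcna did not. Gins1 and Pole passed without each library in turn. Lost were Rfc3 without any 1 of the 6 libraries (adjusted p up to 0.122), Mcm10 without any 1 Wt Arg library, Wt Leu 2 or Wt Leu 3 (0.157), Gmnn and Cdc45 without Wt Arg 1, Wt Arg 3, Wt Leu 1 or Wt Leu 2 (0.182 and 0.0961), and Pcna without Wt Arg 1, Wt Arg 2, Wt Leu 1 or Wt Leu 3 (0.142). With the replicate number as a block, 5 of the 39 were higher and 11 lower, beside 10.6% and 9.98% of all genes. With scaling by library size alone 1 of the 39 was higher and 5 lower, beside 4.71% and 5.03% of all genes.

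Between the unstarved groups, 5 of the 39 were higher and 1 lower in Gcn than in Wt cells, 12.8% and 2.56%. Of all genes, 16.6% were higher and 16.2% lower, so both shares were under the background with all 18 libraries. Without the 3 Gcn libraries numbered 1 the higher share was not, as given below. Markers of other cell types also differed. The 8 early differentiation markers summed to 30.8 to 34.6 CPM in Gcn Unstarved, against 88.4 to 102 CPM in Wt Unstarved, with T (log2 -4.04) and Krt18 (-3.73) lower and Sox1 (0.80) higher. Of 5 fibroblast markers tested, Col1a1, Col1a2 and Col3a1 were lower in Gcn Unstarved. Of 10 stem cell markers, Nanog, Klf4 and Zfp42 were higher and Lin28a lower. The part of these markers in the values that follow was not tested. Pola1 was highest in fold, with 155, 150 and 138 CPM in Gcn Unstarved, against 73.4, 86.8 and 69.6 CPM in Wt Unstarved (0.95 ± 0.12, adjusted p = 3.14e-06). Ccne1 was lower, with 202, 209 and 207 CPM in Gcn Unstarved, against 311, 298 and 315 CPM in Wt Unstarved (-0.58 ± 0.080, adjusted p = 8.1e-06). Gins3 had 34.4, 35.1 and 32.6 CPM in Gcn Unstarved, against 26.3, 24.1 and 25.7 CPM in Wt Unstarved (0.42 ± 0.071, adjusted p = 9.37e-05), and Cdc6 89, 86.7 and 85.5 CPM in Gcn Unstarved, against 69.3, 66.3 and 62.7 CPM in Wt Unstarved (0.40 ± 0.069, adjusted p = 0.000123). None of these 4 overlapped between genotypes, but neither did several uncalled members, among them Mcm2, Mcm5 and Tyms. How many of all genes did not overlap was not counted. Cdc45 (0.31) and Prim1 (0.27) were also higher, Prim1 not without Wt Unstarved 3 (adjusted p = 0.0618). The E2F genes did not pass, with -0.08 ± 0.10, adjusted p = 0.603 for E2f1 and 0.15 ± 0.14, adjusted p = 0.459 for E2f2. Without the 3 Gcn libraries numbered 1, 11 of the 39 were higher and 1 lower, where 14.9% of all genes were higher and 16.6% lower. The higher share was then above the background, so its place relative to the background depended on these libraries.

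The interaction, the change in Gcn cells minus the change in Wt cells, asked whether GCN2 status altered the response. For arginine none of the 39 passed, where 0.62% of all genes had a higher and 1.68% a lower value in Gcn cells. At an unadjusted p under 0.05 there were 7, DESeq2 called 1 (Pola1) and limma-voom 0. For leucine only Orc1 passed in edgeR, lower in Gcn cells (-0.46 ± 0.11, adjusted p = 0.0356), where 0.154% of all genes were higher and 0.668% lower. There were 12 genes at an unadjusted p under 0.05, limma-voom called Orc1 alone, and DESeq2 called Gins3, Pola1 and Rrm2 too. Orc1 had 80.9, 71.7 and 77.9 CPM in Gcn Leu, against 114, 103 and 95.5 CPM in Gcn Unstarved, and 91.5, 93.7 and 99.1 CPM in Wt Leu, against 94.1, 95.9 and 88.9 CPM in Wt Unstarved. Its call was lost without any 1 of the 3 Wt Leu libraries, Wt Unstarved 1, Wt Unstarved 3, Gcn Leu 2, Gcn Unstarved 1 or Gcn Unstarved 2 (adjusted p up to 0.129), without the 3 Gcn libraries numbered 1 (0.0652), and with library size alone or only the 4 compared groups in the fit (up to 0.0792). Pola1 had the largest uncalled differences (arginine -0.60 ± 0.17, adjusted p = 0.0647, and leucine -0.59 ± 0.17, adjusted p = 0.108); both use the unstarved libraries that also set its genotype difference above. For E2f1 the differences were 0.36 ± 0.14, adjusted p = 0.201 (arginine) and 0.38 ± 0.14, adjusted p = 0.223 (leucine), and for Uhrf1 0.30 ± 0.12, adjusted p = 0.213 and 0.35 ± 0.12, adjusted p = 0.199. E2f2 had 0.60 ± 0.21, adjusted p = 0.135 for arginine and 0.32 ± 0.20, adjusted p = 0.523 for leucine.

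These results changed when the replicate number entered the fit as a block within each genotype. Deviations of same-numbered libraries from their group means correlated by over 0.1 in all pairs of Gcn groups. Between Wt Unstarved and Wt Arg or Wt Leu the lowest values were 0.096 and 0.049, so numbers were not taken as pairing there. Each Wt library still correlated best with its own number, which Gcn Arg 2 did not with Gcn Unstarved. For arginine, 9 of the 39 then had a higher change in Gcn than in Wt cells. They were E2f1, E2f2, Ccne1, Mcm3, Pola2, Rrm2, Uhrf1, Chaf1a and Slbp, and Orc1 had a lower one. Of all genes, 5.91% were higher and 8.89% lower. For leucine, 12 of the 39 were higher (E2f1, E2f2, Ccne1, Cdc6, Gins1, Gins3, Pcna, Pola2, Rrm2, Uhrf1, Chaf1a and Slbp). Lower were 2, Orc1 and Rfc3. Of all genes, 4.43% were higher and 6.67% lower. The sizes stayed close to those without the block, at log2 0.35 for E2f1, 0.60 for E2f2, 0.30 for Uhrf1 and -0.26 for Orc1 with arginine (adjusted p = 0.00452, 9.41e-05, 0.01 and 0.0264). With leucine they were 0.37 for E2f1, 0.33 for E2f2, 0.35 for Uhrf1, 0.32 for Gins3 and -0.46 for Orc1 (adjusted p = 0.00409, 0.0208, 0.00524, 0.0167 and 0.000521).

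**Figure D5:**
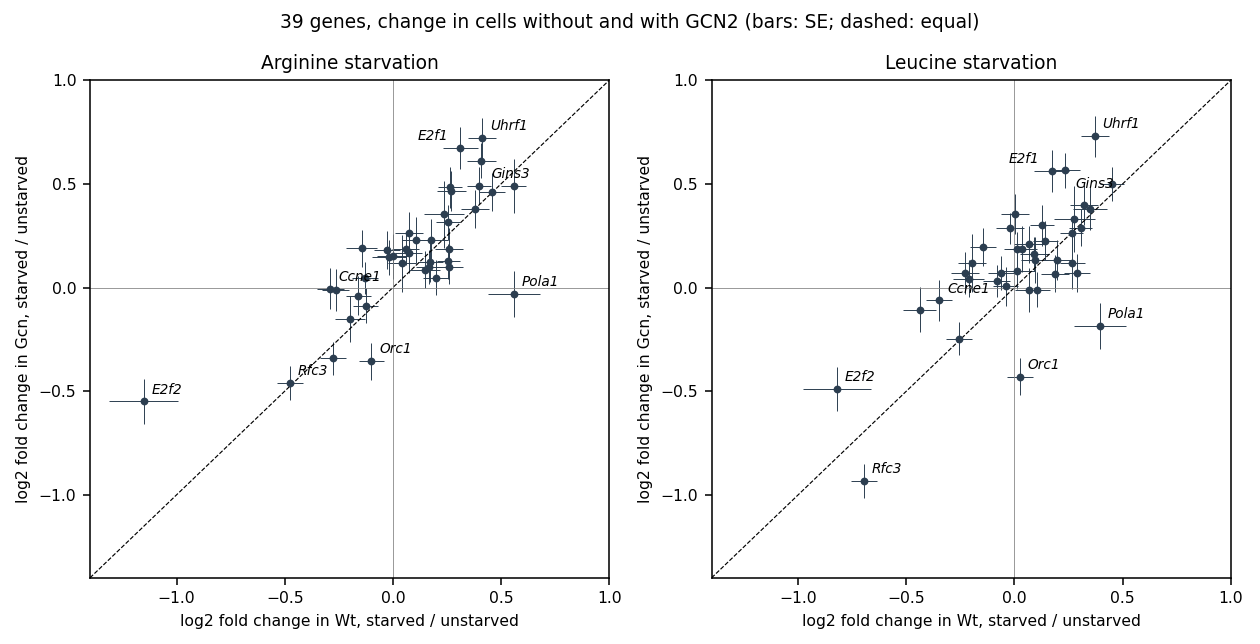
Log2 fold change of each of the 39 genes with starvation in Gcn cells (vertical axis) against that in Wt cells (horizontal axis), for arginine (left) and leucine (right), with SE as bars and equality as a dashed line. Uhrf1, E2f1 and Gins3 lie above the line and Pola1 and Orc1 below it, and Orc1 with leucine starvation is the single difference that passed the test without a replicate block.

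Other genes of the same processes were counted from lists; the shares of all genes given above for each comparison are their background, and the medians of all genes lay between -0.011 and 0.007. Of 32 further origin and fork genes, 7 rose and 2 fell in Gcn Arg, 6 and 8 in Gcn Leu, 11 and 6 in Wt Arg, and 8 and 7 in Wt Leu. Their median log2 fold changes were 0.01, -0.053, 0.097 and 0.011 in that order. The largest called changes of each list are named with their values in Gcn Arg, Gcn Leu, Wt Arg and Wt Leu, in that order wherever 4 values stand together. Ticrr, which brings activating factors to licensed origins, rose in all 4 groups (log2 0.43 ± 0.12, 0.57 ± 0.12, 0.54 ± 0.067 and 0.68 ± 0.067), and so did the ORC subunit gene Orc5 (0.32, 0.35, 0.75 and 0.55). Mtbp, a partner of TICRR, rose in Wt Arg (0.60 ± 0.073) and Wt Leu (0.39 ± 0.074), with -0.15 in Gcn Arg and -0.21 in Gcn Leu, uncalled. The Gcn minus Wt difference of Mtbp passed the interaction test with arginine (-0.75 ± 0.14, adjusted p = 0.00473) and leucine (-0.61 ± 0.14, adjusted p = 0.0392), the leucine call being lost in 9 of 12 fits that left out 1 library (up to 0.132) and with scaling by library size alone (0.0739). Of the fork protection genes, Timeless rose in Gcn Arg (0.33), Gcn Leu (0.74) and Wt Leu (0.32), with 0.09 in Wt Arg, and Tipin fell in Gcn Arg (-0.56) and Wt Arg (-0.36), with -0.07 in Gcn Leu and -0.14 in Wt Leu. Rnaseh2a, a subunit of an enzyme that removes ribonucleotides from DNA, fell in Gcn Leu (-0.42), Wt Arg (-0.21) and Wt Leu (-0.59), with 0.02 in Gcn Arg.

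Of 15 further nucleotide supply genes, 2 rose and 1 fell in Gcn Arg, 1 and 4 in Gcn Leu, 2 and 2 in Wt Arg, and 0 and 5 in Wt Leu. Their median log2 fold changes were -0.078, -0.086, -0.054 and -0.013 in that order. Rrm2b, a p53-inducible reductase subunit, rose in Gcn Arg (0.68 ± 0.18) and Wt Arg (0.50 ± 0.14), with 0.48 in Gcn Leu and 0.33 in Wt Leu, uncalled. Ctps, which makes CTP, fell in Gcn Arg (-0.40), Gcn Leu (-0.34) and Wt Leu (-0.21), with -0.13 in Wt Arg. Samhd1, which degrades deoxynucleotides, fell in Gcn Leu (-0.51) and Wt Leu (-0.22), with -0.21 in Gcn Arg and -0.05 in Wt Arg. Dck, a deoxynucleoside kinase, fell in Gcn Leu (-0.30), Wt Arg (-0.28) and Wt Leu (-0.56), with -0.13 in Gcn Arg. Of the pyrimidine synthesis genes, Dhodh rose in Gcn Leu (0.41 ± 0.082), with 0.08, -0.03 and 0.10 in Gcn Arg, Wt Arg and Wt Leu, and Umps fell in Wt Leu (-0.29 ± 0.062), with 0.09, -0.25 and -0.07 in Gcn Arg, Gcn Leu and Wt Arg.

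The 27 other E2F, RB and G1/S regulators fell more often than they rose: 5 rose and 8 fell in Gcn Arg, 5 and 7 in Gcn Leu, 5 and 9 in Wt Arg, and 5 and 13 in Wt Leu. Median log2 fold changes of the list were -0.03, 0.002, -0.071 and -0.162 in that order. Cdkn1b, the p27 inhibitor of cyclin E kinase, rose in all 4 groups (0.79 ± 0.098, 0.78 ± 0.098, 0.66 ± 0.060 and 0.72 ± 0.060). Cdkn1a, the p21 inhibitor, fell in Wt Arg (-0.89 ± 0.11) and Wt Leu (-0.51 ± 0.11) but rose in Gcn Leu (0.30 ± 0.093), with -0.26 in Gcn Arg, uncalled. Its change differed between genotypes by the interaction test with leucine (0.80 ± 0.15, adjusted p = 0.0085) and arginine starvation (0.62 ± 0.15, adjusted p = 0.0329), the arginine call being lost in 7 of 12 fits that left out 1 library (up to 0.116). Cyclin D2 (Ccnd2) fell in all 4 (-0.92, -0.999, -0.35 and -0.51), as did Fbxw7, which marks cyclin E for degradation (-0.65, -0.62, -0.63 and -0.57). Cdkn2d, an inhibitor of cyclin D kinases, rose in Gcn Arg (0.69), Gcn Leu (1.04) and Wt Leu (0.35), with 0.07 in Wt Arg.

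Of 21 other S-phase E2F targets, 4 rose and 3 fell in Gcn Arg, 1 and 2 in Gcn Leu, 8 and 3 in Wt Arg, and 4 and 3 in Wt Leu. Their median log2 fold changes were 0.062, 0.009, 0.088 and -0.008 in that order. Atad2, a chromatin ATPase, rose in Gcn Arg (0.72 ± 0.13), Wt Arg (0.87 ± 0.096) and Wt Leu (0.53 ± 0.096), with 0.25 in Gcn Leu. The repair gene Brca1 rose in Wt Arg (0.79) and Wt Leu (0.52), with 0.39 in Gcn Arg and 0.20 in Gcn Leu, uncalled. Dscc1, of an alternative clamp loader, rose in Gcn Arg (0.49) and Wt Arg (0.40), with -0.15 in Gcn Leu and -0.08 in Wt Leu. The mismatch repair gene Msh6 fell in all 4 groups (-0.41, -0.59, -0.20 and -0.28), as did Usp1, a deubiquitinase of PCNA (-0.49, -0.54, -0.23 and -0.26).

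Of 20 mitosis genes, 0 rose and 1 fell in Gcn Arg, 0 and 0 in Gcn Leu (2 at an unadjusted p under 0.05), 7 and 7 in Wt Arg, and 3 and 4 in Wt Leu. Median log2 fold changes of these were -0.116, -0.027, -0.023 and 0.023 in that order. Aurkb, the Aurora B kinase, fell in Gcn Arg (-0.69 ± 0.085), Wt Arg (-0.86 ± 0.069) and Wt Leu (-0.23 ± 0.068), with -0.03 in Gcn Leu. Bub1, of the spindle checkpoint, rose in Wt Arg (0.62) and Wt Leu (0.46), with 0.26 in Gcn Arg and 0.10 in Gcn Leu, and Mki67 likewise in Wt Arg (0.50) and Wt Leu (0.73), with 0.13 and 0.30 in Gcn Arg and Gcn Leu, uncalled. The summed level of the mitosis genes was 4060 to 4570 CPM in Gcn Arg and 4410 to 4710 CPM in Gcn Leu, against 4450 to 4880 CPM in Gcn Unstarved, and 4130 to 4330 CPM in Wt Arg and 4100 to 4520 CPM in Wt Leu, against 4070 to 4410 CPM in Wt Unstarved, with overlap in each. Between the unstarved genotypes, 9 origin and fork genes, 7 S-phase targets and 6 mitosis genes were higher in Gcn cells and none was lower, while of the G1/S regulators 6 were higher and 7 lower and of the nucleotide supply genes 2 were lower.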

How the data were processed

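Per the labels' protocols, poly(A) RNA libraries were made with a directional kit and read as paired ends of 43 bp. The authors deposited raw HTSeq counts per Ensembl gene in 1 table per genotype, and the submitters' processing notes name STAR 2.7.4a, HTSeq and build GRCm38. The sources used here name neither annotation release nor strand setting, and 12 of the 39 genes share exon with a gene of the opposite strand. The deposited normalized tables, also 1 per genotype, were not used. Tests on the counts used edgeR 4.0.16 under R 4.3.3, with filterByExpr, TMM scaling, robust quasi-likelihood F tests and Benjamini-Hochberg adjustment over all genes, called at an adjusted p under 0.05. The SE of a log2 fold change was its size over the square root of F. Comparisons within a genotype used its 9 libraries (16369 genes in Gcn, 16140 in Wt), and those between genotypes and the interactions all 18 (16924 genes). The median biological coefficient of variation was 0.109, 0.0749 and 0.0935. The tests were tried on simulated counts. CPM used TMM over the 18 libraries, and CPM per kb the union of GENCODE vM21 exons. The members, gene lists and tests were chosen with earlier results of these data known.

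Genes given in full are, per starvation comparison, the 6 called members with the largest absolute log2 fold change, and 4 for the other comparisons. Of each further list the 2 largest called genes per starvation comparison are named, except 1 that is not reported here. Marker genes were counted the same way, with the shares of all genes given above for each comparison as background. Of the stem cell, fibroblast and early differentiation markers 3, 0 and 4 rose and 3, 0 and 0 fell in Gcn Arg. In Gcn Leu 4, 0 and 2 rose and 1, 0 and 0 fell. In Wt Arg 2, 0 and 2 rose and 2, 0 and 0 fell. In Wt Leu 3, 1 and 0 rose and 2, 0 and 0 fell.

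Same-numbered libraries correlated in their deviations from group means by 0.18 to 0.485 in each pair of Gcn groups and by 0.166 to 0.285 between Wt Leu and Wt Arg, all over 0.1, so numbers were taken as pairing there. They were not between Wt Unstarved and Wt Arg (lowest 0.096) or Wt Leu (0.049), nor between genotypes (-0.159 to 0.029). Within Wt each library still correlated best with its own number. Gcn Arg 2 correlated better with a Gcn Unstarved library of another number (0.217) than with that of its own (0.194). Alternatives were other size factors (RLE), scaling by library size, no filter, DESeq2 1.42.0, limma-voom (limma 3.58.1), other sets of groups in the fit, the replicate block with and without a GC correction (a lowess trend of span 0.3 on transcript GC content, for 16906 of 16924 genes), and leaving out libraries.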

Additional observations from a re-analysis of the deposited data

Results flagged for a closer look

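The change of Orc1 with leucine starvation differed between genotypes by the interaction test (log2 -0.46 ± 0.11, edgeR adjusted p = 0.0356, lower in Gcn cells), with all 3 Gcn Leu libraries below all 3 Gcn Unstarved libraries and the Wt groups overlapping. The call was lost in 8 of the 12 fits that left out 1 library of the 4 groups (adjusted p up to 0.129), with scaling by library size alone, with only the compared groups in the fit and without the 3 Gcn libraries numbered 1 (up to 0.0792). Of the named genes of the further lists, the changes of Mtbp (-0.75 ± 0.14 with arginine and -0.61 ± 0.14 with leucine) and Cdkn1a (0.62 ± 0.15 and 0.80 ± 0.15) also differed between genotypes by that test. Mtbp with arginine and Cdkn1a with leucine passed in all 12 fits that left out 1 library and under the 9 other settings (adjusted p up to 0.0206 and 0.0384), while Mtbp with leucine was lost in 9 and Cdkn1a with arginine in 7 of the 12. The search for a single outlying value within a group does not apply to groups of 3 libraries; the Gcn libraries numbered 1, which stand apart, are described with the samples.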

How the results depend on the processing

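Over the single genes given in full, 520 of their values under other settings kept direction and side of the threshold, 42 kept direction but not the call, and none reversed. Counts of called members moved by over 1.5 times as follows. With the replicate block, and with the block and a GC correction, they were 24 and 26 in Gcn Arg, 23 and 24 in Gcn Leu, 12 and 15 for leucine against arginine in Gcn, and 16 and 16 in Wt, 10 and 9 for the arginine interaction and 14 and 15 for the leucine interaction; with the GC correction the unstarved genotypes gave 13. Library size alone gave 22 in Gcn Arg and 0 for the leucine interaction. Without a filter on low counts, leucine against arginine in Gcn gave 5 and the interactions 2 each. DESeq2 gave 5, 1 and 4 for the same 3. With only the compared groups in the fit, the arginine interaction gave 1 and the leucine interaction 0. With all 6 groups in 1 fit, leucine against arginine gave 6 in Gcn and 1 in Wt. Without the 3 Gcn libraries numbered 1, the unstarved genotypes gave 12 and the leucine interaction 0. Whether or not they moved by as much, the ranges with 1 library left out were 12 to 16 calls in Gcn Arg, 8 to 13 in Gcn Leu, 19 to 23 in Wt Arg, 15 to 19 in Wt Leu, 1 to 3 and 2 to 4 for leucine against arginine in Gcn and Wt, 5 to 8 between unstarved genotypes, and 0 to 1 and 0 to 2 for the arginine and leucine interactions; of the main calls, 11 of 14, 8 of 15, 19 of 25 and 13 of 21 in the 4 starved groups held without each library. Within 1.5 times of the counts of 25 and 21 without it, the block gave 30 in Wt Arg and 24 in Wt Leu, where numbers were not taken as pairing although each library correlated best with its own number. The cause of these shifts was not tested. The SEs come from the fits, which rest on 3 libraries per group. Counting error was not set apart from the spread between libraries, and the smallest member count was 345.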
